A study of Homo sapiens with 12 samples.

Results

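Well-known target genes of glucocorticoids, progestins and androgens, 8 in number, were followed in T47D, a line of human luminal breast cancer cells that make the estrogen receptor, to ask what hormone starvation removes besides estrogen. The genes were chosen by symbol: ZBTB16, CEBPB, CEBPD, STAT5A, TSC22D3, SGK1, TMPRSS2 and HSD11B2, which are 8 of the 59410 genes in the table. Each matched 1 Ensembl ID. Transcription was measured by PRO-seq, which sequences the nascent RNA of engaged RNA polymerases and so reads transcription rather than stored RNA.

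The 12 libraries form 6 groups of 2, numbered 3 and 4 in each group. Starved T47D cells were given 1 nM estradiol or 0.1% DMSO by volume (vehicle). T47D cells in complete medium, which the labels give as RPMI with fetal bovine serum, were given 100 nM fulvestrant, 100 nM raloxifene, 100 nM tamoxifen or 0.1% DMSO. Every treatment lasted 1 h after 3 days in medium. Fulvestrant blocks the estrogen receptor and promotes its degradation, whereas raloxifene and tamoxifen are selective modulators that compete with estrogen for it. That cells were starved is stated by the names of the groups and by the design text only. The starvation medium and the vehicle of estradiol were not stated, so which steroids were removed cannot be read from the labels. No DMSO content was given for the estradiol, fulvestrant, raloxifene and tamoxifen groups. No group received a glucocorticoid, a progestin or an androgen, and all groups are 1 cell line. Whether a group's libraries stem from separate cultures is not stated. P-values here therefore weigh the spread between the 2 libraries of a group, estimated over all 6 groups in 1 fit, and this spread may be technical. In these bulk samples fewer transcribing cells and less transcription per cell cannot be told apart.

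Steroid hormones act through receptors that are ligand-activated transcription factors of the same family. Those for glucocorticoids and progesterone bind, as dimers, closely related elements built from the hexamer AGAACA and its inverted repeat, whereas the estrogen receptor prefers repeats of AGGTCA. The serum in complete medium carries steroids of all these kinds, and starvation medium is usually made from serum stripped of them. T47D cells are known for abundant progesterone receptor.

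Library totals ran from 3682311 to 7856803 counts, with raloxifene library 4 the shallowest. The markers of luminal breast epithelium were all transcribed in every library: KRT8, KRT18, KRT19, GATA3, FOXA1 and EPCAM lay between 31.9 and 982 CPM (counts scaled to a common library size by TMM, edgeR's trimmed-mean scaling). Of 10 markers of blood, stroma, endothelium and basal cells, 8 stayed at or below 3.16 CPM in every library, with COL3A1, CDH5, KRT5, KRT14 and LYZ at 0 in at least 1 library. The other 2, COL1A1 and ACTA2, reached 23.9 and 30.9 CPM. The summed level of the 10 markers was 57.6 to 59.7 CPM in starved vehicle, against 47.2 to 47.6 CPM in complete vehicle, and none of the 4 that could be tested was called different between them. With estradiol, ACTA2 was lower, at 21.6 ± 1.3 CPM with estradiol and 30.6 ± 0.4 CPM in starved vehicle (SD, n = 2 each; log2 difference -0.51, adjusted p = 0.0124). Of the luminal markers, KRT8 was lower in starved vehicle than in complete vehicle (-0.31, adjusted p = 0.000661). With estradiol against starved vehicle, KRT8 (0.48), KRT18 (0.33) and KRT19 (0.39) were higher and FOXA1 was lower (-0.39). The part of these markers in the results was not tested.

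The sequence around the start sites of 4 of the 8 genes is held in the RefSeq table used (GRCh38.p14), as 12 windows of 250 bases before to 50 bases from the start. Of these, 4 windows are shown: those of SGK1 and STAT5A because they hold the hexamer AGAACA, and those of TSC22D3 and CEBPB because both genes passed the test in at least 1 comparison. Capitals mark AGAACA. The SGK1 window is chr6:134177812-134178111 on the minus strand, the STAT5A window chr17:42287189-42287488 on the plus strand, the TSC22D3 window chrX:107717013-107717312 on the minus strand and the CEBPB window chr20:50190580-50190879 on the plus strand.
SGK1: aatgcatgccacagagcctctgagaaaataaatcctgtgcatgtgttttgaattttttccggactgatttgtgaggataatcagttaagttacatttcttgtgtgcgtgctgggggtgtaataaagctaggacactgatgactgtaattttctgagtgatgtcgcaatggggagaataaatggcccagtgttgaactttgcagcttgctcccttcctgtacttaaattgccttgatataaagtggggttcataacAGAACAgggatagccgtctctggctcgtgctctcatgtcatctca
STAT5A: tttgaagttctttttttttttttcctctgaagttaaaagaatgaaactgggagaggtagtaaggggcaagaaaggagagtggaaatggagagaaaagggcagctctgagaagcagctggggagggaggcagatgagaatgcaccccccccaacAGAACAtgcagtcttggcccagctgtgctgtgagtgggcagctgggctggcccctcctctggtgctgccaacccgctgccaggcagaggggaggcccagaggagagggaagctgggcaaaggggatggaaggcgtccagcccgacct
TSC22D3: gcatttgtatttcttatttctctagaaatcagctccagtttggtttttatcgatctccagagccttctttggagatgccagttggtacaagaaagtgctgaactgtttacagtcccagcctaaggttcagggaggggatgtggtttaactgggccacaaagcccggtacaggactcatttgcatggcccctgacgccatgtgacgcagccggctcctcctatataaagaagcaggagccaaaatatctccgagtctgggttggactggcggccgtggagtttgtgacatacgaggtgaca
CEBPB: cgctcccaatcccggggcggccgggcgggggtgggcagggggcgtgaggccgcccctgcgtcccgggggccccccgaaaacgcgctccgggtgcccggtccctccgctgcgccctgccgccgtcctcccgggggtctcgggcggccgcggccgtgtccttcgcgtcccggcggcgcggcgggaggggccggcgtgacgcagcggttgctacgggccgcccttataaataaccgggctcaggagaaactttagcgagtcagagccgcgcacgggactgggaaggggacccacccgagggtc

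In the SGK1 window the hexamer begins at position 6, where the start site is position 1, and in the STAT5A window 97 bases before the start site (position -97). AGAACA or its reverse complement TGTTCT was present in 3 of the 12 windows, since a second STAT5A window overlaps the first and holds the same letters. Of all 35116 windows in the table, 14.8% hold it, so its presence at 2 of 4 genes is a description and not a binding site. The full palindrome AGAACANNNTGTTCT was in 0 of the 12 windows and in 1 window of the whole table (0.00285%). The estrogen receptor hexamer AGGTCA or its reverse complement TGACCT was in 1 of the 12, a STAT5A window not shown, against 13.8% of all windows. The estrogen palindrome GGTCANNNTGACC was in 0 of the 12, against 0.057% of all windows. These windows cover little beyond the start site, and nothing about a receptor's binding follows from a missing match.

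All 8 genes passed the filter on low counts. Their levels in complete vehicle, divided by the RefSeq span of each gene because PRO-seq reads introns as well as exons, ran from 0.0445 CPM per kb at SGK1 and 0.0804 at ZBTB16 to 8.38 at CEBPB and 10.3 at CEBPD, with STAT5A at 0.153, TSC22D3 at 0.203, TMPRSS2 at 0.472 and HSD11B2 at 0.736 CPM per kb. Both C/EBP genes, which are short and have no introns, therefore had the densest signal. The counted part of each gene was not stated, so this order holds for whole spans only.

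**Figure D1:**
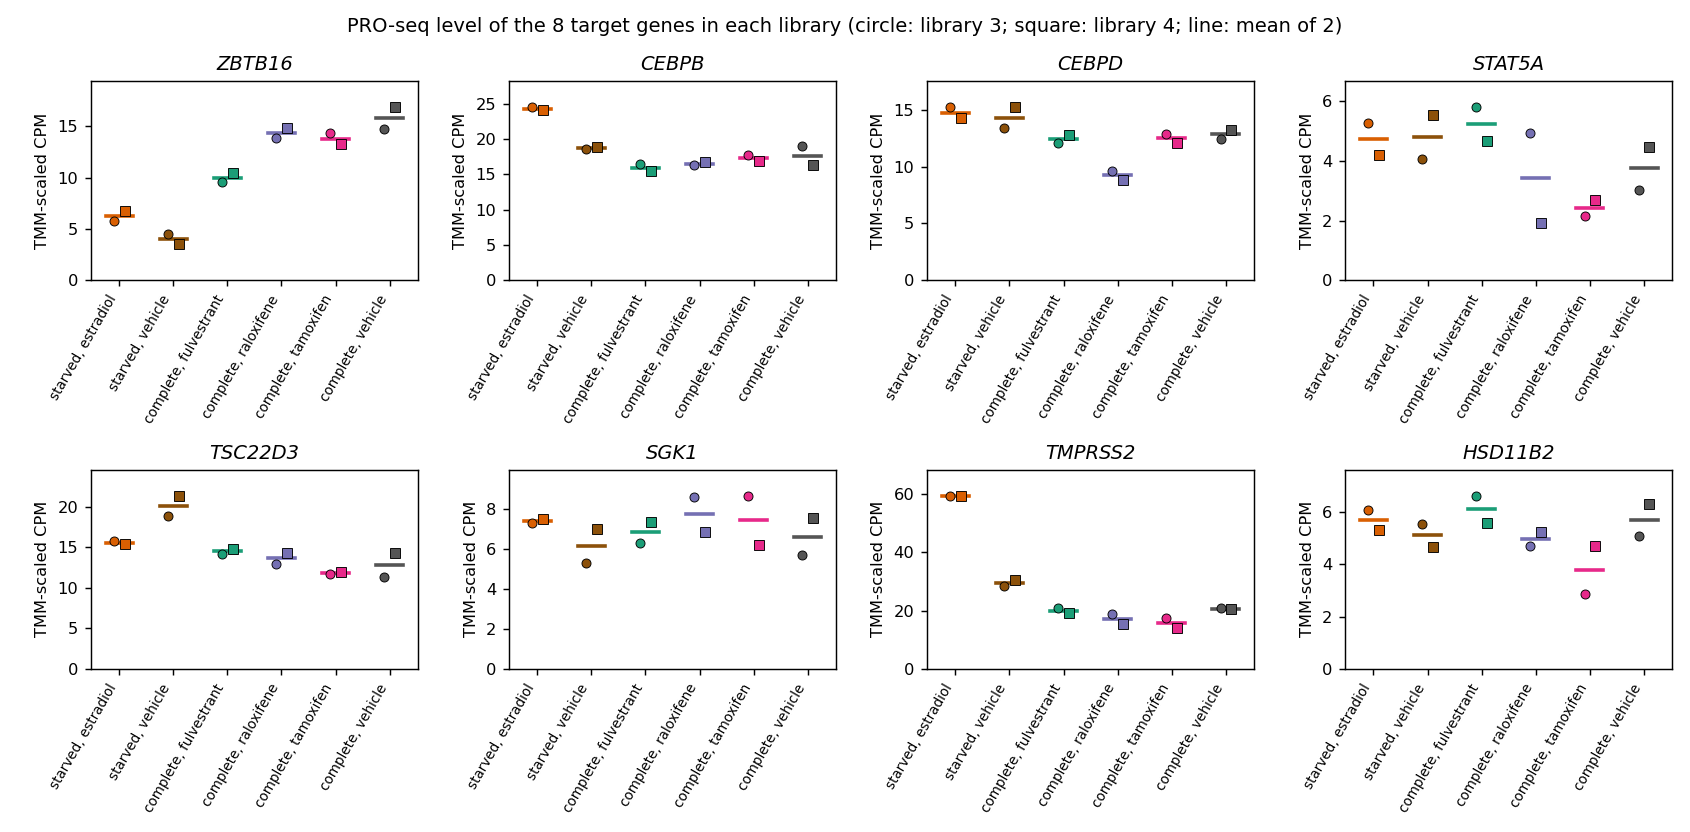
TMM-scaled CPM of the 8 target genes (y axis, from 0) in the 12 libraries by group (x axis); circles are library 3, squares library 4 and lines the mean of both. ZBTB16 lay between 3.51 and 6.76 CPM in the 4 starved libraries and between 9.53 and 16.9 CPM in the 8 complete-medium libraries, TSC22D3 was highest in starved vehicle, and TMPRSS2 reached 59.4 and 59.5 CPM with estradiol.

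The first comparison, starved with complete medium in vehicle, asks what starvation takes away or adds. Of the 8 genes, ZBTB16 fell, TSC22D3 and TMPRSS2 rose, and 5 did not pass the test. All genes gave 18.8% called in either direction (quasi-likelihood test of edgeR, threshold 0.05 on p-values adjusted by Benjamini-Hochberg over 23375 genes), of which 9.1% were higher and 9.67% lower. The median log2 fold change of the 8 genes was 0.12, against 0.01 over all genes tested. Starvation thus did not lower these genes together. Of the 8 genes, 4 did not overlap between the groups, where 58.7% of all genes did not.

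ZBTB16 (ENSG00000109906, chromosome 11, 114059711 to 114256770), which encodes the transcriptional repressor PLZF and is induced by glucocorticoids and progestins in many cell types, had 4.47 and 3.51 CPM in the starved vehicle libraries, against 14.8 and 16.9 CPM in the complete vehicle libraries. These are 33 and 24 counts in starved vehicle, against 93 and 83 counts in complete vehicle, and the groups did not overlap. The means were 3.99 ± 0.68 CPM in starved vehicle and 15.9 ± 1.5 CPM in complete vehicle (SD, n = 2 each), 3.92 times lower after starvation. On the log2 scale the difference was -1.97 ± 0.19, where the error is the fit's standard error, as for all log2 values given with ± here (edgeR, adjusted p = 1.81e-07). The fall was called under all 10 alternative settings tried, at -2.15 to -1.81.

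TSC22D3 (ENSG00000157514, chromosome X, 107713221 to 107775988), which encodes GILZ, the glucocorticoid-induced leucine zipper that restrains inflammatory signalling, went the other way. Its level was 18.8 and 21.3 CPM in starved vehicle, against 11.3 and 14.3 CPM in complete vehicle. Every starved vehicle library was above every complete vehicle library, and the rise was 0.67 ± 0.14 on the log2 scale (adjusted p = 0.00225). It was not called with DESeq2 (adjusted p = 0.0519) or without complete vehicle library 3 (adjusted p = 0.089).

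TMPRSS2 (ENSG00000184012, chromosome 21, 41464305 to 41508158), a membrane serine protease gene known as an androgen target in prostate cells, had 28.4 and 30.7 CPM in starved vehicle, against 20.8 and 20.6 CPM in complete vehicle. The groups did not overlap, and the rise was 0.51 ± 0.12 (adjusted p = 0.00522). This call too was lost with DESeq2 (adjusted p = 0.0566), without starved vehicle library 4 (adjusted p = 0.0578) and without complete vehicle library 3 (adjusted p = 0.0504). Its neighbours MX1, 5.09 kb away, and RIPK4 were also higher in starved vehicle (log2 fold changes of 0.39, adjusted p = 0.0242, and 0.53, adjusted p = 0.000182).

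The other 5 genes gave small differences with wide intervals. SGK1 (ENSG00000118515, chromosome 6, 134169256 to 134318112), a kinase induced by glucocorticoids and mineralocorticoids, had 5.28 and 7.02 CPM in starved vehicle, against 5.73 and 7.54 CPM in complete vehicle, and the log2 difference of -0.10 had a 95% interval of -0.61 to 0.42. HSD11B2 (ENSG00000176387, chromosome 16, 67429801 to 67437553), the enzyme that inactivates cortisol and is a progestin target in breast cancer cells, had 5.55 and 4.68 CPM in starved vehicle, against 5.09 and 6.31 CPM in complete vehicle (-0.14, interval -0.68 to 0.40). Both pairs of groups overlapped, and the intervals leave room for changes of either sign.

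CEBPB (ENSG00000172216, chromosome 20, 50190583 to 50192690), a transcription factor of the inflammatory and mammary programmes, had 18.6 and 18.9 CPM in starved vehicle, against 19.1 and 16.3 CPM in complete vehicle (0.07, interval -0.20 to 0.33). CEBPD (ENSG00000221869, chromosome 8, 47736913 to 47738164), its glucocorticoid-inducible relative, had 13.4 and 15.2 CPM in starved vehicle, against 12.4 and 13.2 CPM in complete vehicle (0.16, interval -0.15 to 0.47). CEBPD did not overlap between the groups and CEBPB did, but neither passed the test. The antisense gene CEBPB-AS1 overlaps CEBPB, and without a stated strand setting their reads cannot be told apart.

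STAT5A (ENSG00000126561, chromosome 17, 42287439 to 42311943), the prolactin-activated transcription factor whose gene responds to progestins, had 4.06 and 5.55 CPM in starved vehicle, against 3.02 and 4.48 CPM in complete vehicle (0.38, interval -0.32 to 1.08). It is the lowest of the 8 in counts, with 7 to 39 per library. Its value is uncertain on 2 grounds: the paralog STAT5B (82.7 CPM in starved vehicle and 81.5 CPM in complete vehicle) overlaps it in the annotation, and reads of near-identical exons can be split between them. STAT3, the next gene, at a distance of 1.38 kb, was higher in starved vehicle (0.49, adjusted p = 1.13e-05).

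**Figure D2:**
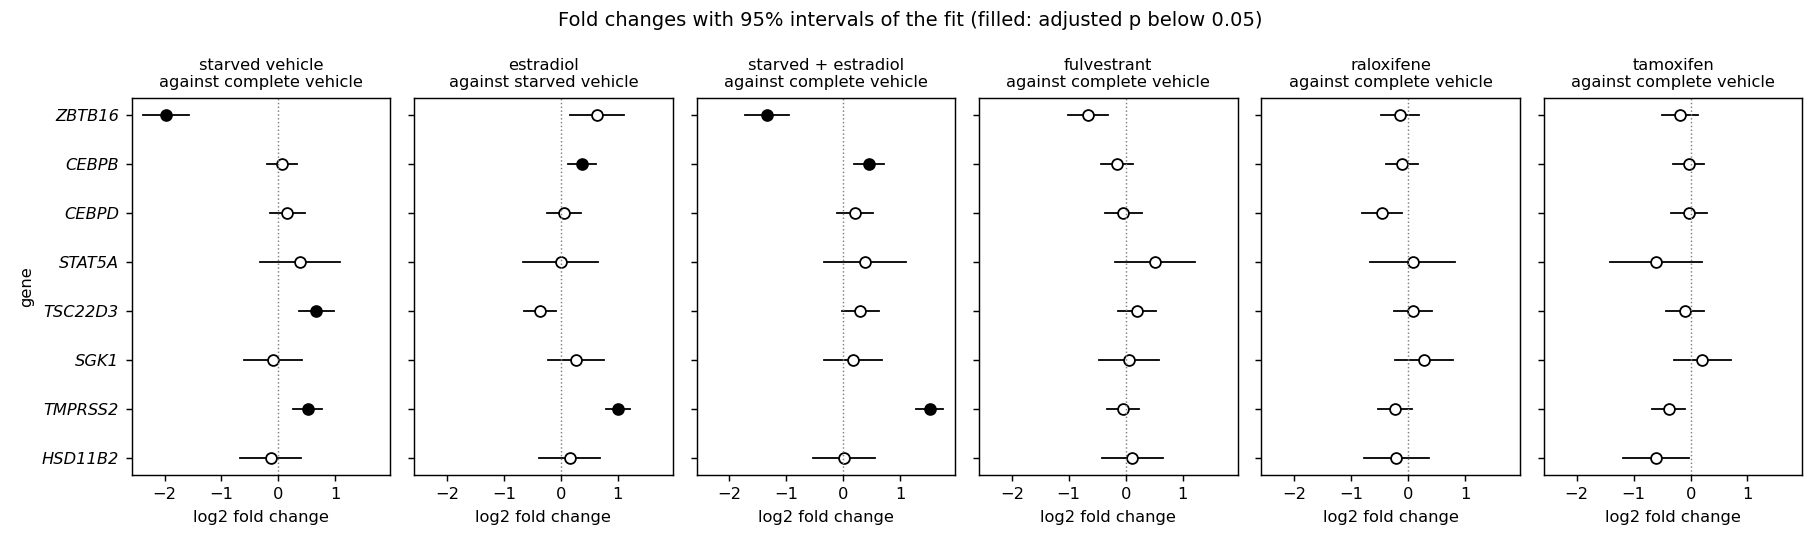
Log2 fold changes (x axis) of the 8 target genes (y axis) in 6 comparisons, with 95% intervals of the edgeR fit; filled points have an adjusted p below 0.05. ZBTB16 lies at -1.97 after starvation and -1.34 after starvation with estradiol, TMPRSS2 lies at 0.51, 1.01 and 1.52 in the first 3 panels, and no point is filled in the 3 drug panels.

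Estradiol was then compared with vehicle in starved cells, which asks which of these genes differ after 1 h with added estradiol. The vehicle of estradiol was not stated. TMPRSS2 rose strongly, CEBPB rose slightly, and the other 6 did not pass the test, where 8.77% of all genes were called, 5.04% higher and 3.74% lower. TMPRSS2 had 59.4 and 59.5 CPM with estradiol, against 28.4 and 30.7 CPM in starved vehicle, so that every estradiol library was well above both vehicle libraries. The fold change was 2.01, or 1.01 ± 0.10 on the log2 scale (adjusted p = 4.98e-07), and it was called under all 10 alternatives. The neighbouring genes MX1 and RIPK4 were not called (-0.18, adjusted p = 0.449, and 0.04, adjusted p = 0.881).

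CEBPB had 24.6 and 24.1 CPM with estradiol, against 18.6 and 18.9 CPM in starved vehicle, with no overlap. The rise of 0.38 ± 0.12 had an adjusted p of 0.0489, just inside the threshold. It was called under 3 of 10 alternatives only, and was lost without TMM scaling (0.08), without the low-count filter (0.137), with DESeq2 (0.447) and without each of the 4 libraries in turn (0.161 to 0.23). CEBPB-AS1 gave -0.06 (adjusted p = 0.941).

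ZBTB16 had 5.76 and 6.76 CPM with estradiol, against 4.47 and 3.51 CPM in starved vehicle. The libraries did not overlap, yet the log2 difference of 0.63 ± 0.23 did not pass the test (adjusted p = 0.105, interval 0.16 to 1.11) in any of the 10 alternatives. TSC22D3 had 15.7 and 15.3 CPM with estradiol, against 18.8 and 21.3 CPM in starved vehicle, a difference of -0.37 ± 0.14 that also missed the threshold (adjusted p = 0.119, interval -0.66 to -0.08). For both genes the estradiol libraries lay on the side of complete medium. The same starved vehicle libraries enter this comparison and the one with complete vehicle, so these directions are not independent. The other 4 genes gave intervals that include 0. SGK1 had 7.31 and 7.49 CPM with estradiol, against 5.28 and 7.02 CPM in starved vehicle (0.27, interval -0.22 to 0.77), and HSD11B2 had 6.07 and 5.30 CPM with estradiol, against 5.55 and 4.68 CPM in starved vehicle (0.15, interval -0.38 to 0.68). CEBPD had 15.2 and 14.2 CPM with estradiol, against 13.4 and 15.2 CPM in starved vehicle (0.05, interval -0.25 to 0.35), and STAT5A had 5.29 and 4.2 CPM with estradiol, against 4.06 and 5.55 CPM in starved vehicle (-0.003, interval -0.66 to 0.66). Of these 4, SGK1 alone did not overlap between the groups, which made 5 of the 8, where 49.4% of all genes did not overlap.

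Estradiol-treated starved cells were also set against complete vehicle, to see what still differed once estrogen was back. Medium, estradiol and possibly vehicle differ together here, and their parts cannot be told apart. This comparison shares its libraries with the previous 2. Of the 8 genes, 3 were called, 2 higher and 1 lower, where 16.2% of all genes were, 8.09% higher and 8.11% lower. ZBTB16 was still 2.53 times lower, at 5.76 and 6.76 CPM in estradiol-treated starved cells, against 14.8 and 16.9 CPM in complete vehicle (-1.34 ± 0.18, adjusted p = 2.06e-05; called under all 10 alternatives). TMPRSS2 was 2.87 times higher (1.52 ± 0.11, adjusted p = 7.65e-09), and CEBPB was 1.37 times higher (0.45 ± 0.12, adjusted p = 0.0154).

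The CEBPB call was lost with DESeq2 (adjusted p = 0.189), without estradiol library 3 (0.0885), without estradiol library 4 (0.0567) and without complete vehicle library 4 (0.149). TSC22D3, at 15.7 and 15.3 CPM in estradiol-treated starved cells, against 11.3 and 14.3 CPM in complete vehicle, did not pass the test (0.30, interval -0.03 to 0.62, adjusted p = 0.231). As a share of the complete vehicle mean, ZBTB16 stood at 39.5% in estradiol-treated starved cells and 25.2% in starved vehicle. TSC22D3 stood at 122% with estradiol and 157% in starved vehicle, and TMPRSS2 at 287% with estradiol and 143% in starved vehicle.

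The 3 estrogen receptor ligands were given to cells in complete medium, where other steroids of the serum remain. None of the 8 genes was called with any of them. Calls over all genes were few, at 1.16% with fulvestrant (0.107% higher and 1.05% lower), 0.569% with raloxifene (0.0898% higher and 0.479% lower) and 0.0513% with tamoxifen (0.00428% higher and 0.0471% lower). DESeq2 called none of the 8 either, though it gave no adjusted p for 2 of the 8 with fulvestrant, 7 with raloxifene and 8 with tamoxifen. Unadjusted p-values under 0.05 were found for 1 gene with fulvestrant (ZBTB16), 1 with raloxifene (CEBPD) and 2 with tamoxifen (TMPRSS2 and HSD11B2), where 7.5%, 9.78% and 6.55% of all genes had one with fulvestrant, raloxifene and tamoxifen.

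ZBTB16 came nearest. It had 9.53 and 10.4 CPM with fulvestrant, against 14.8 and 16.9 CPM in complete vehicle, with no overlap, and the difference of -0.66 ± 0.17 had an adjusted p of 0.0639 (0.0197 to 0.729 over the 10 alternatives). With raloxifene it had 13.9 and 14.9 CPM, and with tamoxifen 14.4 and 13.3 CPM, against the same vehicle libraries, with differences of -0.14 for raloxifene (interval -0.48 to 0.19) and -0.19 for tamoxifen (interval -0.51 to 0.14). The order of its 6 group means was complete vehicle, raloxifene, tamoxifen, fulvestrant, estradiol-treated starved and starved vehicle. Complete vehicle, raloxifene and tamoxifen overlapped as neighbours, and each later group lay below the one before it.

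CEBPD had 9.62 and 8.80 CPM with raloxifene, against 12.4 and 13.2 CPM in complete vehicle (-0.45 ± 0.17, interval -0.80 to -0.10, adjusted p = 0.366). TMPRSS2 had 17.5 and 13.9 CPM with tamoxifen, against 20.8 and 20.6 CPM in complete vehicle (-0.39 ± 0.14, interval -0.68 to -0.09, adjusted p = 0.655). HSD11B2 had 2.85 and 4.70 CPM with tamoxifen, against 5.09 and 6.31 CPM in complete vehicle (-0.61 ± 0.28, interval -1.19 to -0.03, adjusted p = 0.753). None of these 3 overlapped with vehicle, and none passed the test. Over all genes 37.1% did not overlap with vehicle for fulvestrant, 37.6% for raloxifene and 34.3% for tamoxifen, so a lack of overlap between groups of 2 is common.

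The drugs were compared with each other at their shared dose of 100 nM and time of 1 h, in 3 pairs of compounds. Raloxifene carries a benzothiophene core and tamoxifen a triphenylethylene core, whereas fulvestrant is a steroid, an estradiol with a long side chain. With p-values adjusted over all genes of each pair, none of the 8 genes was called in any pair, where 0.103% of all genes were for raloxifene against fulvestrant (0.103% higher and 0% lower), 0.462% for tamoxifen against fulvestrant (0.453% higher and 0.00856% lower) and 0.00428% for tamoxifen against raloxifene (0.00428% higher and 0% lower). At an unadjusted p under 0.05 there were 2, 4 and 1 of the 8, in that order of pairs, where 4.9%, 5.08% and 4.54% of all genes had one. DESeq2 called 0 in each, though it gave no adjusted p for 4, 2 and 0 of the 8, in the same order. These p-values are not adjusted over the 3 pairs.

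ZBTB16 was 0.52 higher with raloxifene than with fulvestrant on the log2 scale (interval 0.16 to 0.87, adjusted p = 0.836) and 0.48 higher with tamoxifen than with fulvestrant (interval 0.13 to 0.82, adjusted p = 0.609). Tamoxifen and raloxifene differed by -0.04 (interval -0.37 to 0.29). STAT5A had 2.17 and 2.69 CPM with tamoxifen, against 5.82 and 4.67 CPM with fulvestrant, a difference of -1.13 (interval -1.87 to -0.38, adjusted p = 0.416) on 16 and 16 counts with tamoxifen, against 36 and 26 counts with fulvestrant. HSD11B2 gave -0.73 for tamoxifen against fulvestrant (interval -1.29 to -0.16, adjusted p = 0.718), and CEBPD gave 0.42 for tamoxifen against raloxifene (interval 0.08 to 0.76, adjusted p = 1). These intervals exclude 0 one at a time but none survives adjustment, and a missed threshold does not show that the compounds act alike.

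The order of levels of the other genes followed the same limits. TSC22D3 was highest in starved vehicle and next in estradiol-treated starved cells, both clear of their next neighbour, and then fulvestrant, raloxifene, complete vehicle and tamoxifen, each overlapping the next. TMPRSS2 ran from estradiol-treated starved cells over starved vehicle to complete vehicle without overlap, and then to fulvestrant (overlapping vehicle), raloxifene and tamoxifen. Raloxifene lay below fulvestrant and overlapped tamoxifen. CEBPB was highest in estradiol-treated starved cells, clear of starved vehicle, complete vehicle and tamoxifen, which overlapped as neighbours. Tamoxifen in turn lay above raloxifene, which overlapped fulvestrant. CEBPD ran from both starved groups, which overlapped, over complete vehicle, tamoxifen and fulvestrant to raloxifene, which lay below all others. SGK1 ranged from 5.28 to 8.68 CPM, HSD11B2 from 2.85 to 6.62 CPM and STAT5A from 1.93 to 5.82 CPM over all 12 libraries, and for these 3 genes every group overlapped its neighbour in the order of means.

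To set the 8 genes in a wider frame, 3 lists of other receptor targets were counted: 22 glucocorticoid, 11 progestin and 16 androgen targets, of which 20, 10 and 12 could be tested. Starvation moved them in both directions, as it did the 8 genes. Of the 42 tested, 11 rose and 6 fell in starved vehicle, where 9.1% of all genes rose and 9.67% fell, and their median was 0.06, against 0.01 over all genes. Of the glucocorticoid targets, 4 rose (ANGPTL4, DUSP1, ERRFI1 and CRISPLD2) and 3 fell (FKBP5, TIPARP and MAOA). Of the progestin targets, 4 rose (EGFR, NEDD9, FASN and ELF5) and 0 fell. Of the androgen targets, 3 rose (STEAP4, NDRG1 and PMEPA1) and 3 fell (AZGP1, SEC14L2 and SORD). Of 12 classical estrogen targets, 11 could be tested and all 11 fell, with a median of -1.29, including GREB1 (-2.07) and PDZK1 (-4.09). All these lists were chosen with earlier results of these data known, so the contrast between them is a description. Of the list genes named here, ANGPTL4, DUSP1, CRISPLD2, MAOA, FASN and STEAP4 were not followed individually over the 10 alternatives. The counts by list show that FASN and STEAP4 lost the call in at least 1 of them. Of the list genes that were followed, ERRFI1 and SORD lost their calls in some fits without a single library. Such fits leave 1 library in a group. ERRFI1 was then at 0.30 without starved vehicle library 3 and 0.28 without complete vehicle library 4, against 0.35 in the main fit. SORD was at -0.50 without complete vehicle library 4, against -0.65 in the main fit. Over the 10 alternatives the 42 gave 7 to 13 higher and 5 to 7 lower, and the estrogen targets gave 11 lower each time.

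**Figure D3:**
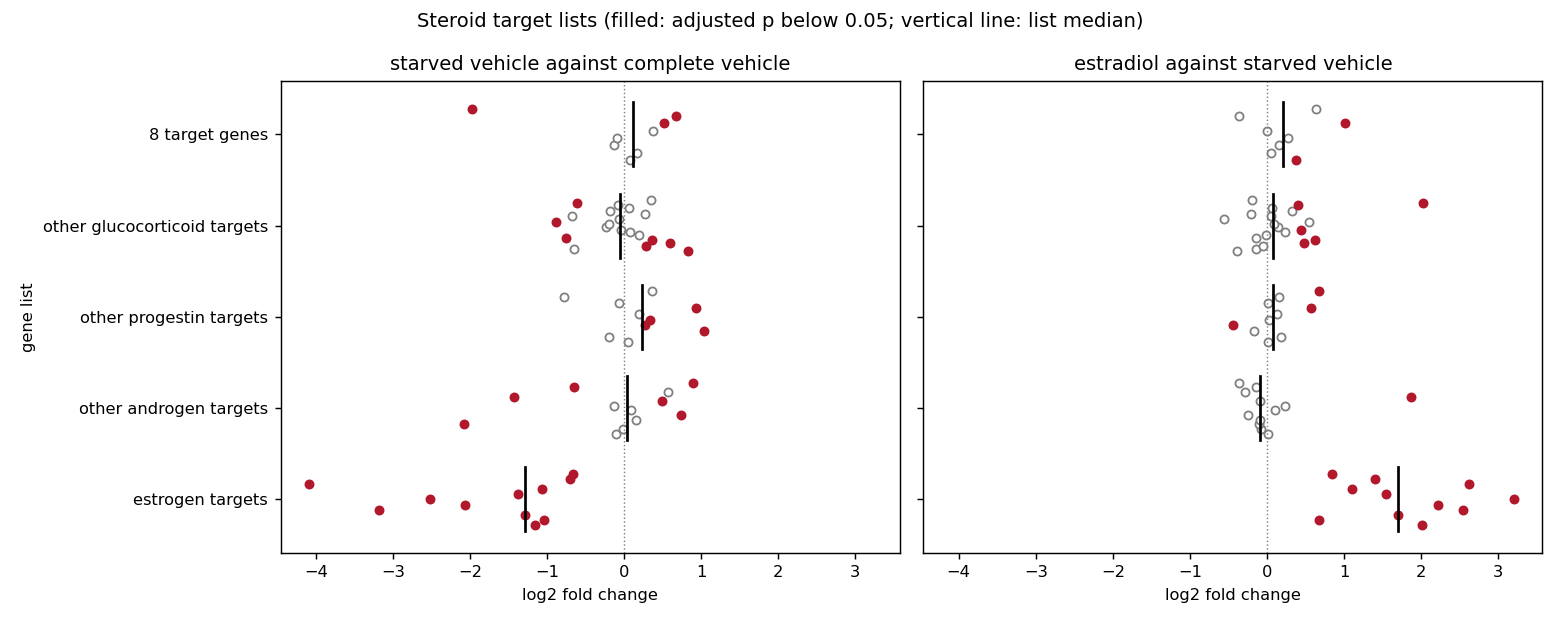
Log2 fold changes (x axis) of the tested members of each list (y axis) for starved against complete vehicle (left) and estradiol against starved vehicle (right); filled points have an adjusted p below 0.05 and vertical lines are list medians. All 11 estrogen targets are lower after starvation (median -1.29) and higher with estradiol (median 1.70). The other lists lie on both sides of 0. All lists were chosen with earlier results of these data known.

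FKBP5 (ENSG00000096060, chromosome 6, 35573590 to 35728583), a co-chaperone of steroid receptors and a target of several of these hormones, had 190 and 197 CPM in starved vehicle, against 323 and 329 CPM in complete vehicle, a fall of 0.76 ± 0.06 on the log2 scale (edgeR, log2 fold change -0.76, adjusted p = 7.31e-09). AZGP1, a secreted glycoprotein gene induced by androgens, had 2.30 and 3.51 CPM in starved vehicle, against 13.8 and 10.4 CPM in complete vehicle (-2.08 ± 0.24, adjusted p = 1.69e-06). SEC14L2, a lipid-binding protein gene (-1.43 ± 0.11, adjusted p = 7.34e-09), and TIPARP, an ADP-ribosyltransferase gene (-0.62 ± 0.11, adjusted p = 0.000475), fell as well. In these 4 genes, as in ZBTB16, both starved libraries lay below both complete ones, where 58.7% of all genes did not overlap. The 4 were named for having the lowest adjusted p among those that fell, so the lack of overlap adds nothing to the test.

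Among those that rose, EGFR, the epidermal growth factor receptor gene, had 113 and 119 CPM in starved vehicle, against 59.5 and 53.2 CPM in complete vehicle (1.03 ± 0.08, adjusted p = 5.97e-09). NEDD9, a scaffold protein gene of focal adhesions, rose by 0.93 ± 0.11 (adjusted p = 4.56e-06), NDRG1, a stress-responsive gene, by 0.74 ± 0.12 (adjusted p = 0.000111), and PMEPA1, an inhibitor of TGF-beta signalling, by 0.48 ± 0.07 (adjusted p = 1.37e-05). PER1, a clock gene and glucocorticoid target, did not pass the test (0.06, adjusted p = 0.764) and was called in no comparison. KLK3, the prostate-specific antigen gene, had 0 to 4 counts per library and was not tested.

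With estradiol, 8 of the 42 rose and 1 fell against starved vehicle, where 5.04% of all genes rose and 3.74% fell (median 0.02, against -0.01 over all genes), and all 11 estrogen targets rose (median 1.70). TIPARP (2.02 ± 0.10, adjusted p = 1.2e-11) and SEC14L2 (1.87 ± 0.11, adjusted p = 5.72e-11) had the lowest adjusted p-values among those that rose, followed by ERRFI1, a feedback inhibitor of EGFR (0.62, adjusted p = 3.76e-06), and GLUL, glutamine synthetase (0.45, adjusted p = 0.000125). ELF5, a transcription factor of the mammary alveolar lineage, fell by 0.45 on the log2 scale (log2 fold change -0.45 ± 0.06, adjusted p = 3.83e-05). FKBP5 was not called, at 173 and 176 CPM with estradiol, against 190 and 197 CPM in starved vehicle (-0.14 ± 0.06, adjusted p = 0.19; called only without TMM scaling, at 0.0479), and AZGP1 was not either (-0.10, interval -0.78 to 0.57).

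Set against complete vehicle, estradiol-treated starved cells still had lower FKBP5 (-0.90 ± 0.06, adjusted p = 1.56e-09), AZGP1 (-2.18 ± 0.25, adjusted p = 2.67e-06) and SORD, the sorbitol dehydrogenase gene (-0.79 ± 0.15, adjusted p = 0.000778). TIPARP (1.41 ± 0.10), NEDD9 (1.51 ± 0.11), ERRFI1 (0.98 ± 0.08) and EGFR (0.86 ± 0.08) were higher (adjusted p from 4.19e-09 to 1.97e-07). In all, 14 of the 42 were higher and 3 lower, where 8.09% of all genes were higher and 8.11% lower. Their median was 0.14, against 0.002 over all genes, and of the 11 estrogen targets 4 were higher and 3 lower. As a share of the complete vehicle mean, AZGP1 stood at 22.3% with estradiol and 24% in starved vehicle, FKBP5 at 53.6% with estradiol and 59.3% in starved vehicle, and SORD at 57.2% with estradiol and 63.4% in starved vehicle. SEC14L2 stood at 136% with estradiol and 37.3% in starved vehicle, and GREB1 at 111% with estradiol and 23.8% in starved vehicle. The estrogen targets were mixed in this respect: PDZK1 stood at 36.1% with estradiol (-1.47 against complete vehicle, adjusted p = 2.16e-08), CXCL12 at 64.3% (-0.63, adjusted p = 4.51e-05) and CCND1 at 77.6% (-0.36, adjusted p = 0.0252), the 3 that were called lower. A level below complete vehicle with estradiol was thus not particular to the targets of other receptors.

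**Figure D4:**
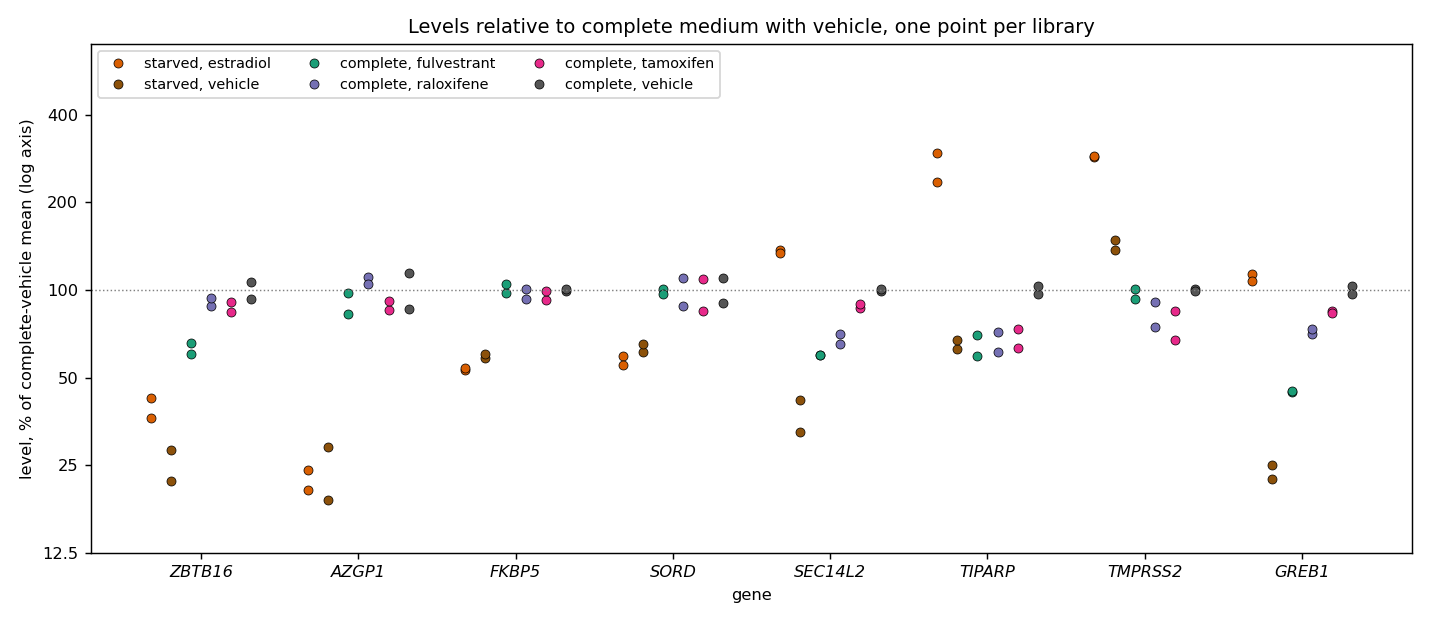
Level of ZBTB16, TMPRSS2, 5 other receptor targets and the estrogen target GREB1 in each library. Levels are in percent of the mean of complete vehicle (log axis), and colours are groups. The 5 other receptor targets all fell after starvation. Of the 42 list genes tested, 11 rose and 6 fell, and none of those that rose is drawn. AZGP1, FKBP5 and SORD stayed at 22.3%, 53.6% and 57.2% in estradiol-treated starved cells and at 24%, 59.3% and 63.4% in starved vehicle, and GREB1, 1 of 11 estrogen targets tested, stood at 111% with estradiol and 23.8% in starved vehicle; PDZK1, not drawn, stood at 36.1% with estradiol.

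With the estrogen receptor ligands in complete medium, FKBP5 was not called, at 319 and 343 CPM with fulvestrant, 304 and 329 CPM with raloxifene and 300 and 324 CPM with tamoxifen, against 323 and 329 CPM in complete vehicle (log2 fold changes of 0.02 with fulvestrant, -0.05 with raloxifene and -0.06 with tamoxifen). With fulvestrant 0 of the 42 rose and 3 fell, where 0.107% of all genes rose and 1.05% fell. The 3 were SEC14L2 (-0.74, adjusted p = 0.000299), TIPARP (-0.63, adjusted p = 0.00466) and GLUL (-0.38, adjusted p = 0.00875), while 10 of the 11 estrogen targets fell. The TIPARP call was lost without complete vehicle library 4 (0.0922) or fulvestrant library 3 (0.169), and the GLUL call without complete vehicle library 3 (0.273), fulvestrant library 3 (0.127) or fulvestrant library 4 (0.0759).

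With raloxifene 0 of the 42 rose and 2 fell, where 0.0898% of all genes rose and 0.479% fell, and 8 of the 11 estrogen targets fell. The 2 were SEC14L2 (-0.55, adjusted p = 0.014) and TIPARP (-0.62, adjusted p = 0.0148). Both calls were lost without complete vehicle library 3 (0.156 and 0.124) or 4 (0.122 and 0.177), SEC14L2 also with DESeq2 (0.0551) and TIPARP also without raloxifene library 3 (0.228). With tamoxifen 0 of the 42 were called and 1 of the 11 estrogen targets fell, but over the 10 alternatives 0 to 3 of the 42 and 0 to 8 of the estrogen targets were called lower. TIPARP, at -0.55 with tamoxifen (adjusted p = 0.118), was called in 4 of them, among them DESeq2 (0.0299), the 4 compared libraries only (0.0204) and no low-count filter (3.5e-07). GREB1 was called in 3 of them and GLUL in 1. Over all genes 0.0513% were called with tamoxifen against vehicle and 0.462% for tamoxifen against fulvestrant. Between compounds, 1 of the 42 differed: SEC14L2 was higher with tamoxifen than with fulvestrant (0.56, adjusted p = 0.0117), a call lost with DESeq2 (0.0795) and without each of the 4 libraries in turn (0.0672 to 0.18).

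Among the receptor genes, 4 are described. PGR, the progesterone receptor gene, had 734 ± 42 CPM in starved vehicle and 1611 ± 20 CPM in complete vehicle (SD, n = 2 each), a log2 fold change of -1.13 (adjusted p = 1.71e-11), and ESR1, which encodes the estrogen receptor, fell as well (-0.96, adjusted p = 6.4e-13). NR3C1, the glucocorticoid receptor gene, was higher, at 55.9 ± 1.0 CPM in starved vehicle and 33.1 ± 4.0 CPM in complete vehicle (0.74, adjusted p = 7.85e-06). NR3C2, the mineralocorticoid receptor gene, was called higher (0.30, adjusted p = 0.0196) but lost the call with DESeq2 (0.169), without starved vehicle library 3 (0.193) and without complete vehicle library 3 (0.182) or 4 (0.0523).

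With estradiol, PGR rose by 1.40 and ESR1 by 0.44 on the log2 scale, NR3C1 fell by 0.44 (adjusted p = 0.00267) and NR3C2 fell by 0.36 (adjusted p = 0.0104), against starved vehicle. The NR3C1 call was lost with DESeq2 (0.0505) and without estradiol library 4 (0.0587), and the NR3C2 call with DESeq2 (0.145), without starved vehicle library 3 (0.184) and without estradiol library 3 (0.213). The levels of transcription of these receptor genes say nothing about hormone bound to the receptors.

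The genes whose profile over the 12 libraries was most like that of each member were found by Pearson correlation of log2 CPM among 14629 genes with a mean of at least 50 counts. These values are descriptive: the 12 libraries are 6 groups of 2, and the members share the libraries and their depth. ZBTB16 was most like ESR1 and COMMD10 (r = 0.978 each), TSC22D3 most like LINC00472 (0.971) and CDC20B (0.956), and TMPRSS2 most like ATF3 (0.989) and CITED4 (0.981). CEBPB was most like SLC7A5 (0.981) and FOSL2 (0.975). Weaker likeness was found for CEBPD (TYRO3P and KHNYN, 0.915 each), STAT5A (SNX12, 0.859, and UBE2D3, 0.843), HSD11B2 (NUP133-DT, 0.85, and the unnamed ENSG00000286181, 0.845) and SGK1 (RNH1, 0.818, and RRBP1, 0.803). Among the 8 genes the highest correlation was that of TMPRSS2 with CEBPB (r = 0.905) and the lowest that of ZBTB16 with TSC22D3 (r = -0.878).

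The genes next to the members were compared in the same way. NNMT, 1.04 kb from ZBTB16, had 0.793 CPM in starved vehicle and 1.73 CPM in complete vehicle and did not pass the test (adjusted p = 0.28). PRPS1, 62.2 kb from TSC22D3, was higher in starved vehicle (0.86, adjusted p = 0.000953) and was not called with estradiol (-0.04, adjusted p = 0.938). ATP6V0D1, 0.47 kb from HSD11B2 (0.07, adjusted p = 0.666), and SPIDR, 0.61 kb from CEBPD (-0.08, adjusted p = 0.318), were not called after starvation. Reads that run past the end of a gene into a close neighbour cannot be told apart in gene counts.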

How the data were processed

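PRO-seq was carried out on 12 T47D libraries. The authors deposited 1 table of raw, whole-number read counts per gene and library. Per the submitters' processing notes, the reads were processed with cutadapt 1.8.1, Bowtie2 2.4.4 and SAMtools 1.9 on hg38; the counting program, annotation, strand setting and counted region were not stated. Of the 60605 Ensembl IDs, 60463 matched a symbol and 142 (0.281% of counts) were kept under their ID. Where several IDs shared a symbol, the one with the most counts was kept; the 1195 left out held 0.074% of counts, which left 59410 genes.

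Groups and library numbers were taken from the labels, where titles number the libraries 1 and 2 and descriptions 3 and 4; the numbers 3 and 4 were used. Counts were fitted for all 6 groups together with edgeR 4.0.16 in R 4.3.3 (TMM scaling, filterByExpr, quasi-likelihood test), which left 23375 genes, and p-values were adjusted by Benjamini-Hochberg over all of them. Levels are TMM-scaled CPM, given per library or as mean ± SD. Intervals are 95% intervals of the fit. The comparisons share libraries: complete vehicle enters 5 of them. Alternatives were no TMM scaling, RLE scaling, no low-count filter, DESeq2 1.42.0 on the filtered genes, the replicate number as a block, the 4 compared libraries only, and each library left out in turn. The code was tested on simulated data.

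The members, the gene lists and the tests were chosen with earlier results of these data known. Named besides the members were, in each comparison, the up to 4 list genes with the lowest adjusted p in each direction, with FKBP5, PER1 and KLK3, the receptor genes PGR, ESR1, NR3C1 and NR3C2, GREB1 and PDZK1, the 2 genes most like each member and adjacent genes; genes that spell out a count were named after their values were seen. Promoter windows came from RefSeq (GRCh38.p14).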

Additional observations from a re-analysis of the deposited data

How the results depend on the processing

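Each member's 9 comparisons were recomputed under 10 alternatives. Of 720 values, 703 kept their status, called or not called, 16 lost a call and 1 gained one. Most of the 720 had no call to lose. In the main fit 3, 2 and 3 members were called in the first 3 comparisons described, and 0 in each of the others. A value without an adjusted p from DESeq2 was counted as not called. No called value changed sign, whereas 40 uncalled values did, 35 of them on leaving out a library. The number of members called after starvation was 3, and 1 with DESeq2 or 1 to 3 without single libraries. With estradiol against starved vehicle it was 2, and 1 without TMM scaling, without the filter, with DESeq2 and without each library. Genes called over the whole table moved more. DESeq2 gave 2379, against 4386, for starvation, 1114, against 2051, for estradiol, 2094, against 3788, for estradiol-treated starved against complete vehicle, and 21, against 12, for tamoxifen. Without single libraries the counts were 2555 to 2875, 1155 to 1325 and 2229 to 2616 for these first 3, 143 to 197, against 270, for fulvestrant, 29 to 204, against 133, for raloxifene, 0 to 13 for tamoxifen, 14 to 168, against 24, for raloxifene against fulvestrant, 48 to 86, against 108, for tamoxifen against fulvestrant, and 0 to 164, against 1, for tamoxifen against raloxifene. Without the low-count filter raloxifene gave 354, tamoxifen 93, and the last 3 pairs 90, 170 and 65. With only the 4 compared libraries tamoxifen gave 21, tamoxifen against fulvestrant 66 and tamoxifen against raloxifene 0. For estradiol against starved vehicle 57.4% of calls were higher, and 45.7% without TMM scaling. The causes were not tested.

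The labels do not state that library numbers mark a pairing. Deviations of same-numbered libraries correlated at 0.056 to 0.362, and with 2 numbers the pairing could not be settled. With the replicate block, fulvestrant gave 498 genes and 1 member (ZBTB16, adjusted p = 0.0197), raloxifene 490, tamoxifen 172 (TIPARP among them, adjusted p = 4.92e-06), and the 3 drug pairs 77, 242 and 35. Depth limits SGK1, HSD11B2 and STAT5A above all, which had 7 to 68 counts per library.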
